A study of Arabidopsis thaliana with 26 samples.

Results

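ATPMEPCRB (locus AT4G02330, also named PME41, a pectin methylesterase) and AT3G06770 (a pectin lyase-like protein of the polygalacturonase type) were followed through a set of brassinosteroid treatments of Arabidopsis seedlings. Each gene had 1 probe set on the ATH1 array, 255524_at for ATPMEPCRB and 258528_at for AT3G06770, so the pair comprised 2 of 13350 genes that had a probe set naming them alone, and both were among the 9741 of these bright enough to be tested. Both genes were chosen on measured values of these arrays. ATPMEPCRB was chosen from the 12 largest named rises over mock after brassinolide and after castasterone, and AT3G06770 was chosen on being higher than mock after 9 compounds. Every value set against mock is therefore a description of the choice and is given without a p-value. Comparisons between compounds were tested where the choice had not split the compounds compared. For AT3G06770 many of these still use arrays that took part in its choice. For both genes the fitted spread behind the calls also enters the limma tests and intervals, so these are not fully independent of the choice.

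The arrays held RNA of whole 7-day-old seedlings, described as de-etiolated, from seed stock N6159 in the Col background, 2 arrays (A and B) for each of 13 treatments of 3 h. Brassinolide was applied at 10 nM, castasterone at 100 nM and campestanol at 10 µM. The compounds applied at 1 µM were typhasterol, 3-dehydroteasterone, teasterone and cathasterone, which carry a ketone at carbon 6, and 6-deoxocastasterone, 6-deoxotyphasterol, 3-dehydro-6-deoxoteasterone, 6-deoxoteasterone and 6-deoxocathasterone, which lack it. The remaining group was a mock treatment, and neither the genotype of the stock nor the mock solution is given in the sources used here. The seedlings therefore cannot be taken as wild type, and the word de-etiolated may name the line rather than a state of the seedlings. Whether A and B came from separate cultures is not stated, so each p-value rests on array-to-array spread that may be technical.

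Pectin is the gel-forming polysaccharide of the primary cell wall, and its main chain, homogalacturonan, is delivered to the wall with methyl groups on most of its galacturonic acid units. Pectin methylesterases remove these groups, which lets calcium bridge neighbouring chains or exposes the chains to polygalacturonases and pectate lyases, the enzymes that cut them, while methylesterase inhibitor proteins hold methylesterases back. Brassinosteroids are plant steroid hormones that promote cell elongation, a process in which the wall is loosened and rebuilt. In the plant, cathasterone, teasterone, 3-dehydroteasterone, typhasterol and castasterone follow each other on the way to brassinolide, and a parallel branch runs through the same steps without the ketone at carbon 6.

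By group mean, ATPMEPCRB was brightest after brassinolide and dimmest after mock. Levels are MAS5 intensities on a linear scale, on which each array had been brought to a common trimmed mean near 100. With brassinolide, arrays A and B read 441 and 436, and with castasterone 405 and 387. With typhasterol they read 449 and 342, and with 6-deoxocastasterone 338 and 304. None of these arrays read under 304, and typhasterol array A was the brightest of all 26.

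The intermediate compounds gave ATPMEPCRB levels that differed widely between their arrays. Arrays A and B read 238 and 428 with 3-dehydro-6-deoxoteasterone, and 153 and 407 with teasterone. They read 237 and 313 with 3-dehydroteasterone, and 145 and 262 with 6-deoxoteasterone. Array B of teasterone was 2.67 times as bright as array A, the widest gap of any treatment for this gene, and the teasterone mean of 280 ± 180 (SD, n = 2) is correspondingly loose. Tighter levels followed with 6-deoxotyphasterol, whose arrays read 162 and 183, and with cathasterone, whose arrays read 120 and 170. At the bottom, the arrays read 74.2 and 115 with 6-deoxocathasterone, 94.3 and 70.7 with campestanol, and 66.4 and 88.4 with mock, and these 3 groups overlapped each other.

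Ordered by mean, ATPMEPCRB ran from brassinolide (438 ± 3.34) through castasterone (396 ± 13.2), typhasterol (395 ± 75.8), 3-dehydro-6-deoxoteasterone (333 ± 135), 6-deoxocastasterone (321 ± 23.9), teasterone (280 ± 180), 3-dehydroteasterone (275 ± 54.3), 6-deoxoteasterone (204 ± 82.4), 6-deoxotyphasterol (172 ± 14.5), cathasterone (145 ± 35.5), 6-deoxocathasterone (94.8 ± 29.1) and campestanol (82.5 ± 16.6) to mock (77.4 ± 15.6; SD, n = 2 each). Arrays of neighbouring groups in this order overlapped except between brassinolide and castasterone and between cathasterone and 6-deoxocathasterone. Array B was brighter than array A in 8 of the 13 groups.

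AT3G06770 followed nearly the same order with a smaller spread. With brassinolide its arrays A and B read 535 and 487, and with castasterone 443 and 460. They read 469 and 425 with typhasterol, 450 and 410 with 3-dehydroteasterone, and 426 and 406 with 6-deoxocastasterone. The lowest array of these 5 treatments, at 406, was brighter than any array of the other 8. The brassinolide arrays lay above every other array.

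Lower levels of AT3G06770 came mostly from compounds earlier in the route. Arrays A and B read 347 and 327 with 3-dehydro-6-deoxoteasterone, 295 and 349 with teasterone, and 292 and 317 with 6-deoxotyphasterol. They read 261 and 312 with 6-deoxoteasterone, and 255 and 262 with cathasterone. Each of these 5 groups overlapped its neighbour in the order. Below them lay 6-deoxocathasterone, with 239 and 196, apart from cathasterone above it and from the 2 lowest groups beneath it. Campestanol, with 157 and 131, and mock, with 160 and 144, overlapped.

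The means of AT3G06770 were 511 ± 34.3 with brassinolide, 452 ± 12.5 with castasterone, 447 ± 30.7 with typhasterol, 430.0 ± 27.9 with 3-dehydroteasterone, 416 ± 14.4 with 6-deoxocastasterone, 337 ± 14.7 with 3-dehydro-6-deoxoteasterone, 322 ± 38.4 with teasterone, 305 ± 17.4 with 6-deoxotyphasterol, 287 ± 36.2 with 6-deoxoteasterone, 258 ± 5.35 with cathasterone, 217 ± 30.6 with 6-deoxocathasterone, 144 ± 18.6 with campestanol and 152 ± 10.8 with mock (SD, n = 2 each). In contrast to ATPMEPCRB, array B was the brighter array in only 5 of 13 groups. On the log2 scale the fitted standard deviation between arrays of a group was 0.15 for AT3G06770 and 0.37 for ATPMEPCRB, so a difference of a given size is measured more closely for AT3G06770. In whole seedlings, a change in RNA per cell cannot be told apart from a change in how many cells of a type were present.

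**Figure D1:**
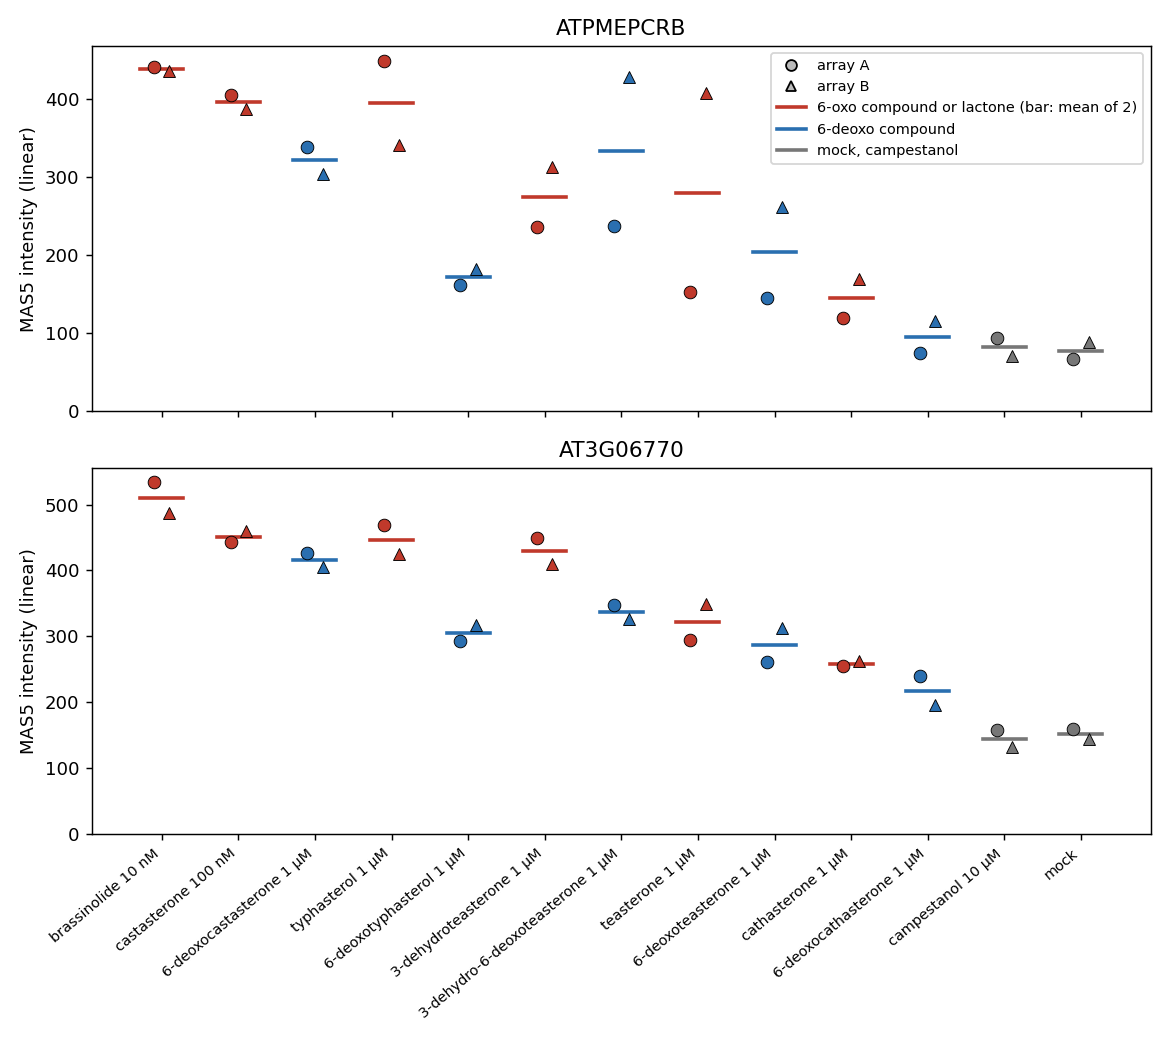
MAS5 intensity (linear axis from 0) of ATPMEPCRB and AT3G06770 on each of the 26 arrays, by treatment, with circles for array A, triangles for array B and a bar at the mean of 2 arrays. Brassinolide means were 438 and 511, mock means 77.4 and 152, and the teasterone arrays of ATPMEPCRB lay farthest apart, at 153 and 407.

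Set against mock, ATPMEPCRB was 5.43-fold higher after brassinolide (log2 difference 2.44, SE 0.37) and 4.91-fold higher after castasterone (2.29). These 2 values took part in the choice of the gene. ATPMEPCRB ranked 11th of 167 named rises after brassinolide, where the last inside was 2.32 and the next outside 2.29, and 12th of 141 after castasterone, where its own 2.29 was the last inside and 2.28 the next outside. The differences from mock at 1 µM were 2.28 for typhasterol, 2.0 for 6-deoxocastasterone, 1.99 for 3-dehydro-6-deoxoteasterone, 1.76 for 3-dehydroteasterone, 1.64 for teasterone, 1.29 for 6-deoxoteasterone, 1.12 for 6-deoxotyphasterol, 0.85 for cathasterone and 0.26 for 6-deoxocathasterone, each with the same SE. Campestanol at 10 µM gave 0.09. As a share of the brassinolide difference on this scale, typhasterol gave 93.4%, 6-deoxotyphasterol 45.8% and 6-deoxocathasterone 10.6%, at a dose 100 times that of brassinolide.

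AT3G06770 was 3.28-fold higher after brassinolide (log2 difference 1.72, SE 0.15) and 2.91-fold higher after castasterone (1.54). It ranked 34th and 41st among the same named rises. At 1 µM its differences from mock were 1.52 for typhasterol, 1.47 for 3-dehydroteasterone, 1.42 for 6-deoxocastasterone, 1.12 for 3-dehydro-6-deoxoteasterone, 1.05 for teasterone, 0.98 for 6-deoxotyphasterol, 0.89 for 6-deoxoteasterone, 0.75 for cathasterone and 0.50 for 6-deoxocathasterone, and campestanol at 10 µM gave -0.08. Typhasterol gave 88.9% of the brassinolide difference, 6-deoxotyphasterol 57.1% and 6-deoxocathasterone 28.9%.

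A probe set was called when its limma p, adjusted by Benjamini-Hochberg over all 17606 tested, was under 0.05. ATPMEPCRB was called against mock for 6 of 12 compounds, namely brassinolide, castasterone, typhasterol, 6-deoxocastasterone, 3-dehydroteasterone and 3-dehydro-6-deoxoteasterone. Without array A of mock it was called for 3. With each of the 4 arrays of a comparison left out in turn, its call held in 4 of 4 fits for brassinolide, castasterone and typhasterol, in 2 for 6-deoxocastasterone, in 1 for 3-dehydro-6-deoxoteasterone and in 0 for 3-dehydroteasterone. AT3G06770 was called for 9 of 12, the count on which it was chosen, which leaves out campestanol, 6-deoxocathasterone and cathasterone. Its call held in 1 of 4 such fits for 6-deoxoteasterone and for 6-deoxotyphasterol, in 3 for teasterone and in 4 for each of the other 6. Over all tested probe sets the share called was 2.58% for brassinolide (2.02% higher and 0.557% lower), 2.38% for castasterone (1.78% higher and 0.596% lower), 1.95% for 6-deoxocastasterone, 1.77% for typhasterol, 1.42% for 3-dehydroteasterone, 0.557% for 3-dehydro-6-deoxoteasterone, 0.352% for teasterone, 0.193% for 6-deoxotyphasterol and 0.165% for 6-deoxoteasterone. It was 0% for cathasterone, 6-deoxocathasterone and campestanol, where 563, 573 and 272 probe sets had an unadjusted limma p under 0.05. Each of these counts is below the share of 0.05 of all tested probe sets expected with no effect. Leaving out a single array moved the number called from 454 to as few as 180 for brassinolide (without its array B) and from 419 to as few as 190 for castasterone (without its array A), so these shares are loose. Since the calls against mock chose both genes, nothing is read from their counts against these shares. The number of fits that kept a call is likewise a description and adds no support.

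**Figure D2:**
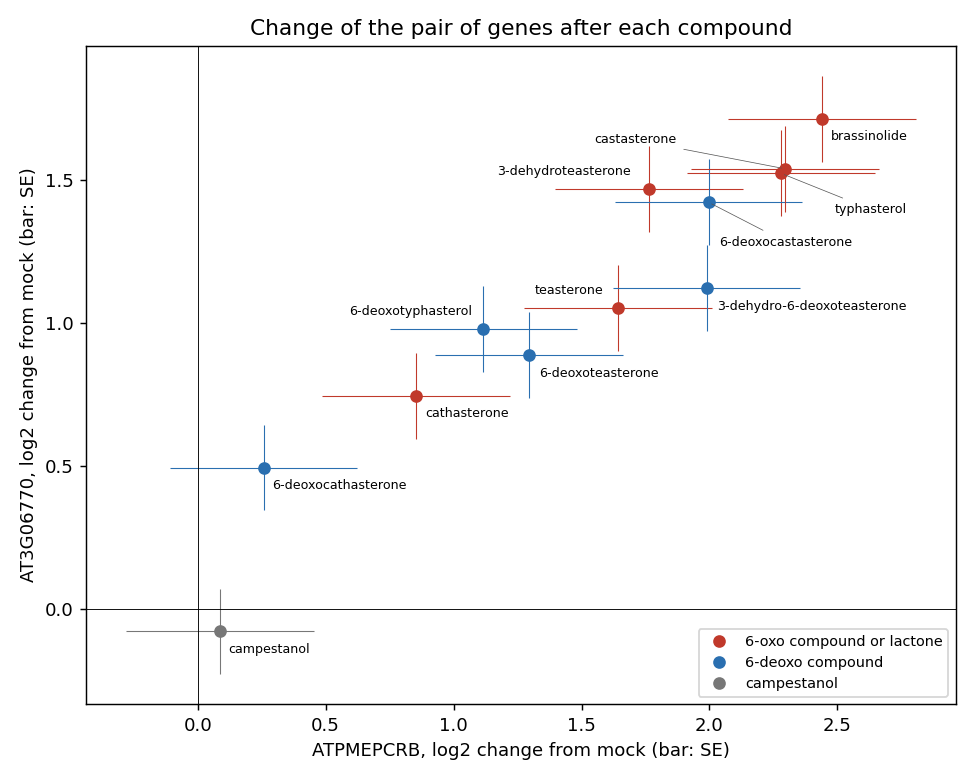
Log2 difference from mock of ATPMEPCRB (horizontal axis) and AT3G06770 (vertical axis) after each of 12 compounds, with bars of 1 SE. The points run from campestanol, at 0.09 and -0.08, to brassinolide, at 2.44 and 1.72, with 3-dehydro-6-deoxoteasterone at 1.99 for ATPMEPCRB and 1.12 for AT3G06770.

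The ketone at carbon 6 separates 4 pairs of compounds given at the same dose and time, and mock takes no part in these comparisons. AT3G06770 was brighter with the 6-oxo compound in 4 of 4 pairs. Its arrays read 469 and 425 with typhasterol, against 292 and 317 with 6-deoxotyphasterol, a log2 difference of 0.55 (95% interval 0.23 to 0.86). They read 450 and 410 with 3-dehydroteasterone, against 347 and 327 with 3-dehydro-6-deoxoteasterone, a difference of 0.35 (0.03 to 0.66). In both pairs every 6-oxo array lay above every 6-deoxo array. The difference was 0.25 (-0.06 to 0.57) for cathasterone minus 6-deoxocathasterone, where the arrays also did not overlap, and 0.17 (-0.15 to 0.48) for teasterone minus 6-deoxoteasterone, where they did.

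The average over the 4 pairs for AT3G06770 was 0.33 (95% interval 0.17 to 0.48), which is 1.25-fold. Relabelling the arrays within each pair gave a two-sided exact permutation p of 0.003086, where 0.001543 is the smallest that 1296 relabellings allow. In limma, over all probe sets, the average was not called (adjusted p = 0.7332), nor was the typhasterol pair (adjusted p = 0.9616).

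For ATPMEPCRB the pairs did not all point the same way. Typhasterol exceeded 6-deoxotyphasterol by 1.16 on the log2 scale (0.39 to 1.93), with arrays at 449 and 342 against 162 and 183, which did not overlap. Cathasterone exceeded 6-deoxocathasterone by 0.60 (-0.17 to 1.36), with 120 and 170 against 74.2 and 115, which did not overlap. Teasterone minus 6-deoxoteasterone was 0.35 (-0.42 to 1.12) and 3-dehydroteasterone minus 3-dehydro-6-deoxoteasterone was -0.23 (-0.99 to 0.54), with overlapping arrays in both. The teasterone difference turned to -0.35 without teasterone array B and to -0.07 without 6-deoxoteasterone array A. The 3-dehydro difference turned to 0.19 without array B of 3-dehydro-6-deoxoteasterone. By letter, teasterone read above 6-deoxoteasterone on arrays A (153 against 145) and arrays B (407 against 262). For both letters 3-dehydroteasterone read below 3-dehydro-6-deoxoteasterone, narrowly on A (236.6 against 237.7) and by more on B (313 against 428). The labels state no pairing by letter. The average of 0.47 (0.09 to 0.85) was positive in 3 of 4 pairs, with a two-sided exact permutation p of 0.1065 and a limma adjusted p of 0.9998. The share of all tested probe sets called was 0% for each pair and for the average. An unadjusted limma p under 0.05 was found for 633, 693, 500 and 476 in the typhasterol, 3-dehydroteasterone, teasterone and cathasterone pairs. For the average it was found for 610. Each of these counts is below the share of 0.05 of all tested probe sets expected with no effect.

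Successive compounds of the 2 branches differ by a hydroxyl group at carbon 23, oxidation at carbon 3, reduction at carbon 3 or a hydroxyl group at carbon 2. For the step at carbon 23, ATPMEPCRB was higher with 6-deoxoteasterone than with 6-deoxocathasterone by 1.04 on the log2 scale (95% interval 0.27 to 1.81), with arrays at 145 and 262 against 74.2 and 115. It was higher with teasterone than with cathasterone by 0.79 (0.02 to 1.56), with 153 and 407 against 120 and 170, which overlap. AT3G06770 differed by 0.39 and 0.31 in these 2 steps, which are given without a test because its choice used calls that split these compounds.

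Oxidation at carbon 3 separates 3-dehydroteasterone from teasterone. AT3G06770 was higher with 3-dehydroteasterone by 0.42 (0.10 to 0.73), with 450 and 410 against 295 and 349, and ATPMEPCRB by 0.12 (-0.65 to 0.89), a difference that became -0.57 without teasterone array A and -0.08 without 3-dehydroteasterone array B. In the 6-deoxo branch, 3-dehydro-6-deoxoteasterone exceeded 6-deoxoteasterone by 0.24 (-0.08 to 0.55) for AT3G06770 and by 0.69 (-0.07 to 1.46) for ATPMEPCRB.

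Reduction at carbon 3, which turns the 3-dehydro compounds into the typhasterols, gave ATPMEPCRB differences of opposite sign in the 2 branches. Its arrays read 449 and 342 with typhasterol, against 237 and 313 with 3-dehydroteasterone, a difference of 0.52 (-0.25 to 1.28). They read 162 and 183 with 6-deoxotyphasterol, against 238 and 428 with 3-dehydro-6-deoxoteasterone, a difference of -0.87 (-1.64 to -0.10). Neither pair of groups overlapped, which with 2 arrays per group can arise by chance. AT3G06770 differed by 0.06 (-0.26 to 0.37) and -0.15 (-0.46 to 0.17) in the same steps, and the 0.06 became -0.01 without typhasterol array A or without 3-dehydroteasterone array B.

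The hydroxyl group at carbon 2 could be compared in the 6-deoxo branch, where both compounds were given at 1 µM. ATPMEPCRB read 338 and 304 with 6-deoxocastasterone, against 162 and 183 with 6-deoxotyphasterol, a difference of 0.88 (95% interval 0.11 to 1.65, limma adjusted p = 0.9857). AT3G06770 read 426 and 406 with 6-deoxocastasterone, against 292 and 317 with 6-deoxotyphasterol, a difference of 0.44 (0.13 to 0.76, limma adjusted p = 0.8782). For both genes the arrays of these groups did not overlap.

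None of the single steps was called for either gene in limma, where the adjusted p was at least 0.7714 in each step tested. The share of all tested probe sets called was 0.00568% for 6-deoxocastasterone minus 6-deoxotyphasterol and 0% for the other 6 steps. In those 6, the number of probe sets with an unadjusted limma p under 0.05 was 994 for 6-deoxoteasterone minus 6-deoxocathasterone, 422 for teasterone minus cathasterone, 404 for 3-dehydroteasterone minus teasterone, 579 for 3-dehydro-6-deoxoteasterone minus 6-deoxoteasterone, 293 for typhasterol minus 3-dehydroteasterone and 623 for 6-deoxotyphasterol minus 3-dehydro-6-deoxoteasterone. Of these counts only the 994 exceeds the share of 0.05 of all tested probe sets expected with no effect.

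Between the last and the first 1 µM compound of a branch, ATPMEPCRB rose in the 6-deoxo branch. It read 338 and 304 with 6-deoxocastasterone, against 74.2 and 115 with 6-deoxocathasterone, which is 3.34-fold (log2 difference 1.74, 95% interval 0.97 to 2.51, limma adjusted p = 0.03232), in a comparison where 0.795% of all tested probe sets were called. This call was lost when any of the 4 arrays was left out, with differences of 1.44 to 2.04 and adjusted p between 0.1033 and 0.2754. In the 6-oxo branch it read 449 and 342 with typhasterol, against 120 and 170 with cathasterone, a difference of 1.43 (0.66 to 2.20) that was not called (limma adjusted p = 0.1437), where 0.165% of all tested probe sets were. With only these 2 groups in the fit it was called (limma adjusted p = 0.00959), while the 6-deoxo difference then was not (limma adjusted p = 0.1662). AT3G06770 differed by 0.93 and 0.78 in these comparisons, given without a test for the reason above. Brassinolide at 10 nM and castasterone at 100 nM were applied at unequal doses, so their levels stand side by side above and are not compared.

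**Figure D3:**
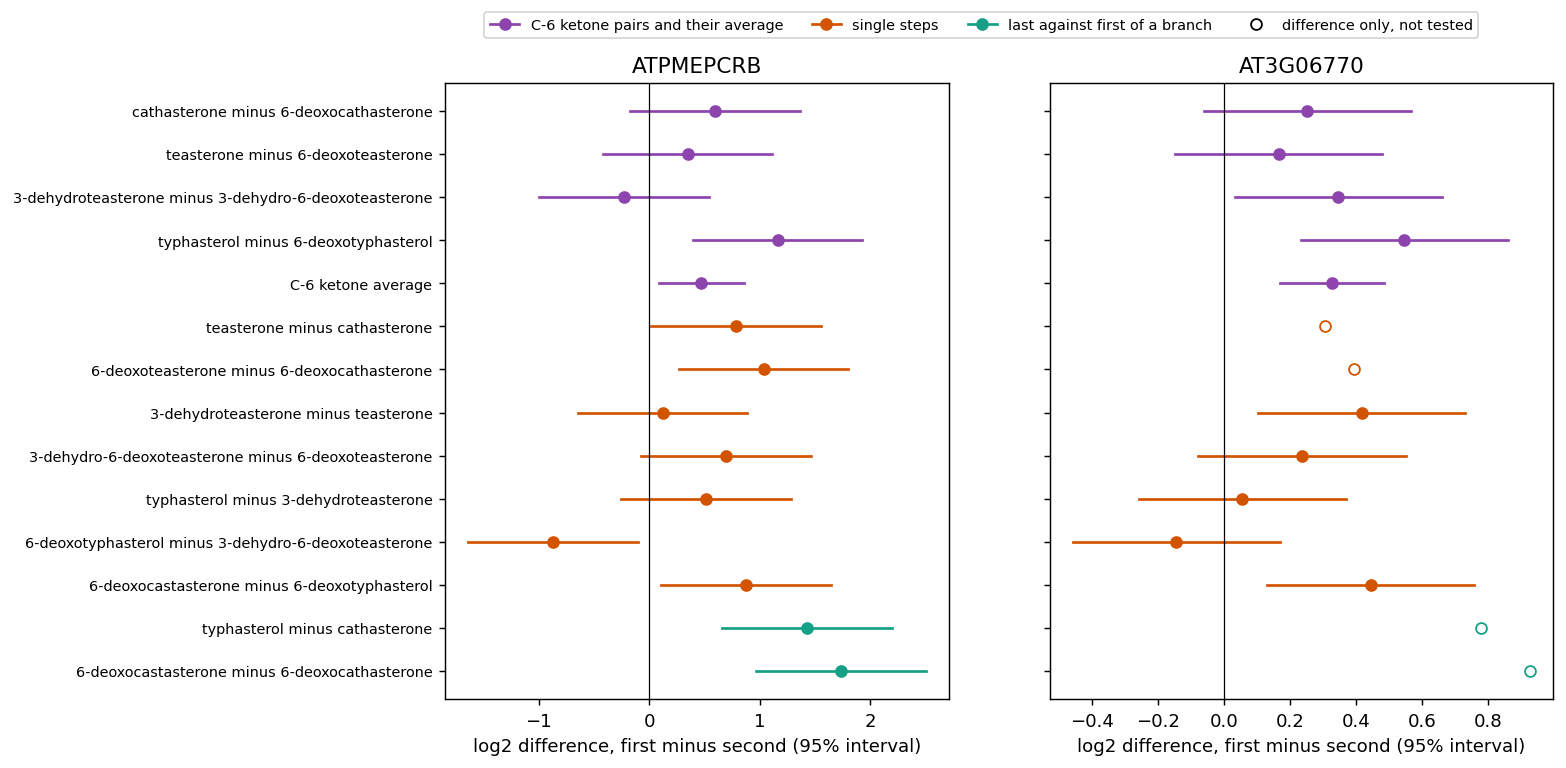
Log2 differences between compounds given at 1 µM for ATPMEPCRB and AT3G06770, first compound minus second, with 95% intervals, and open circles for the 4 AT3G06770 differences given without a test. The average of the carbon 6 pairs lies at 0.47 for ATPMEPCRB and 0.33 for AT3G06770, and the reduction at carbon 3 in the 6-deoxo branch lies at -0.87 and -0.15.

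The levels of the 2 genes moved closely together across treatments. Over the 13 group means of log2 values Pearson's r was 0.963 (Spearman's rho 0.973), over the 26 arrays 0.911 (0.909), and over the 12 group means without mock 0.951 (0.972). The points share arrays and treatments, and both genes were chosen for being high after the late compounds, so these coefficients describe the pattern and carry no test.

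Among 9860 other tested probe sets naming a single gene, the 5 most like ATPMEPCRB over the 13 group means were AT3G25600 (r = 0.991), AT3G04210 (0.990), AT2G31730 (0.981), EXLA1 (0.979) and AT3G07470 (0.978). EXLA1 is an expansin-like protein, of a family related to expansins, the proteins that loosen the wall. AT3G06770 came 16th in that order. The 5 most like AT3G06770 were XTH33 (0.988), EXLA2 (0.986), AT2G47440 (0.985), EXLA1 (0.982) and THE1 (0.982). XTH33 belongs to the xyloglucan endotransglucosylases, which cut and rejoin the hemicellulose xyloglucan, and THE1 is the receptor kinase THESEUS1, known for sensing the state of the wall. ATPMEPCRB came 34th in that order. Such likeness was common, with 138 probe sets above 0.9 for ATPMEPCRB and 161 for AT3G06770, while the median over all candidates was -0.045 and -0.059. By rank correlation only 2 of the 5 stayed among the closest for each gene. The genes given by locus alone have no name in the tables used.

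The rest of the pectin machinery was followed through lists of loci, assigned to families from general knowledge of the Arabidopsis genome since the files give no families. After brassinolide, 2 of the other tested pectin methylesterases were called, a count too small to read against the share of all probe sets. Of 66 listed loci 44 had a probe set naming them alone and 21 of these were tested, among them ATPMEPCRB. Besides it, AT3G49220 and AT2G47550 were called higher and none was called lower, 2 of 20 against 2.02% of all tested probe sets. The median log2 difference of these 20, without ATPMEPCRB, was 0.06 after brassinolide and 0.43 after castasterone. Over all tested probe sets the median was -0.0005 and 0.03. After castasterone 1 of the 20 was called higher, against 1.78% of all tested probe sets, and none lower, against 0.596%. Many of the 20 averaged close to the minimum mean intensity of 10 required for testing, so no rise of the family is read from the castasterone median.

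AT3G49220 was the methylesterase that rose most after ATPMEPCRB, at 1115 and 879 after brassinolide, against 409 and 372 after mock. Its log2 difference was 1.33 (SE 0.17, limma adjusted p = 0.000127) after brassinolide and 1.28 after castasterone. It was called for 8 of 12 compounds, with r = 0.979 to AT3G06770 over the 13 group means. AT2G47550 read 79.8 and 115 after brassinolide, against 47.7 and 43.3 after mock, a difference of 1.00 (SE 0.23, limma adjusted p = 0.02163). The arrays did not overlap, but leaving out brassinolide array B or either mock array ended this call, with an adjusted p of up to 0.3471.

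Of the enzymes that cut the chain, 21 of 66 listed polygalacturonase-like loci were tested (44 had a named probe set). AT3G16850 was called beside AT3G06770, with 351 and 379 after brassinolide, against 173 and 161 after mock, a difference of 1.10 (SE 0.18, limma adjusted p = 0.00142). AT3G16850 was the 1 called higher among the 20 tested besides AT3G06770, against 2.02% of all tested probe sets. None of the 20 was called lower, against 0.557%, and their median was 0.15. Of 27 pectate lyases, 23 had a named probe set and 15 were tested. AT1G04680 rose, with 509 and 527 after brassinolide, against 298 and 208 after mock, a difference of 1.04 (SE 0.16, limma adjusted p = 0.000648). AT3G07010 rose by 1.14 (SE 0.23, limma adjusted p = 0.00837), with 241 and 293 after brassinolide, against 131 and 106 after mock, and its call ended without brassinolide array B or mock array B. Both lyases were also called higher after castasterone. That made 2 of 15 after each hormone, against 2.02% of all tested probe sets after brassinolide and 1.78% after castasterone. None was called lower, against 0.557% and 0.596%. The median of the 15 was 0.35 after brassinolide, against -0.0005 over all tested probe sets.

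Of 27 listed inhibitors of methylesterases, 20 had a named probe set and 15 were tested. After brassinolide 1 of the 15 was called higher, against 2.02% of all tested probe sets, and 0 were called lower, against 0.557%. The gene called was AT4G25260, with 273 and 274 after brassinolide, against 121 and 130 after mock, a difference of 1.09 (SE 0.20, limma adjusted p = 0.00297). AT5G62360 read 34.2 and 16.3 after brassinolide, against 77.5 and 57.9 after mock, a difference of -1.32 (SE 0.54) that was not called (limma adjusted p = 0.349) although the arrays did not overlap. Its correlation with AT3G06770 over the 13 group means was -0.957. The median of the 15 inhibitors was -0.05. The count of 0 lower depended on the fit. With the array letter as a block, AT5G62360 (limma adjusted p = 0.0006152) and AT1G14890 (0.0135) were called lower after brassinolide.

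Of 11 pectin acetylesterases, which remove acetyl groups from pectin, 5 had a named probe set and all 5 were tested. After brassinolide 1 of the 5 was called higher, against 2.02% of all tested probe sets, and none lower, against 0.557%. AT3G05910 was called higher, with 506 and 522 after brassinolide, against 215 and 291 after mock, a difference of 1.03 (SE 0.22, limma adjusted p = 0.0128), a call that ended without either brassinolide array or without mock array A. Of 22 genes of pectin synthesis only GAUT15, a galacturonosyltransferase of the family that builds homogalacturonan, had a named probe set. It read 69.4 and 78.3 after brassinolide, against 33.3 and 32.8 after mock, a difference of 1.05 (SE 0.19, limma adjusted p = 0.00255) whose call ended without brassinolide array B (adjusted p = 0.05353).

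**Figure D4:**
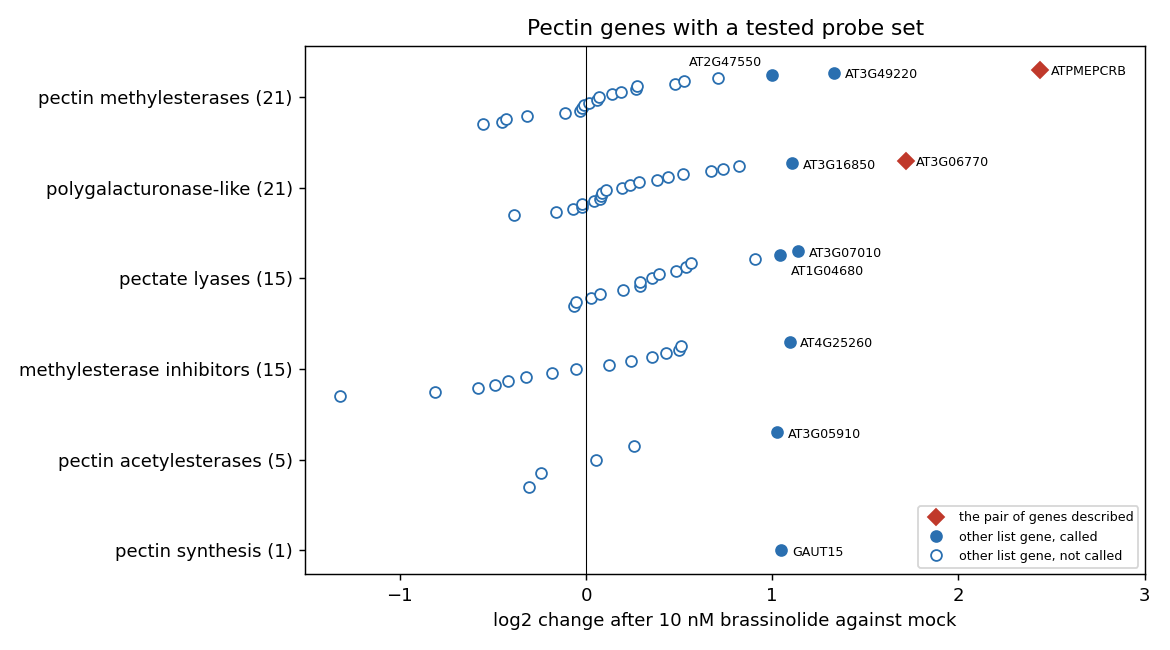
Log2 difference after 10 nM brassinolide against mock for every tested gene of the 6 pectin lists, with the number tested in brackets, filled symbols for called probe sets and diamonds for ATPMEPCRB and AT3G06770. Called probe sets lie between 1.00 and 2.44, and the lowest point is the inhibitor AT5G62360 at -1.32.

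Calls of pectin genes by compound are given beside the share of all tested probe sets called, as a description. No pectin list gene was called after campestanol, 6-deoxocathasterone or cathasterone. None could be, since no tested probe set at all was called in those treatments. After 6-deoxoteasterone, where 0.165% of all tested probe sets were called, AT3G06770 was the 1 pectin gene called. It had been chosen on its calls against mock. After 6-deoxotyphasterol, where 0.193% were called, AT3G06770 and AT3G49220 were, with differences of 0.98 and 0.98.

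**Figure D5:**
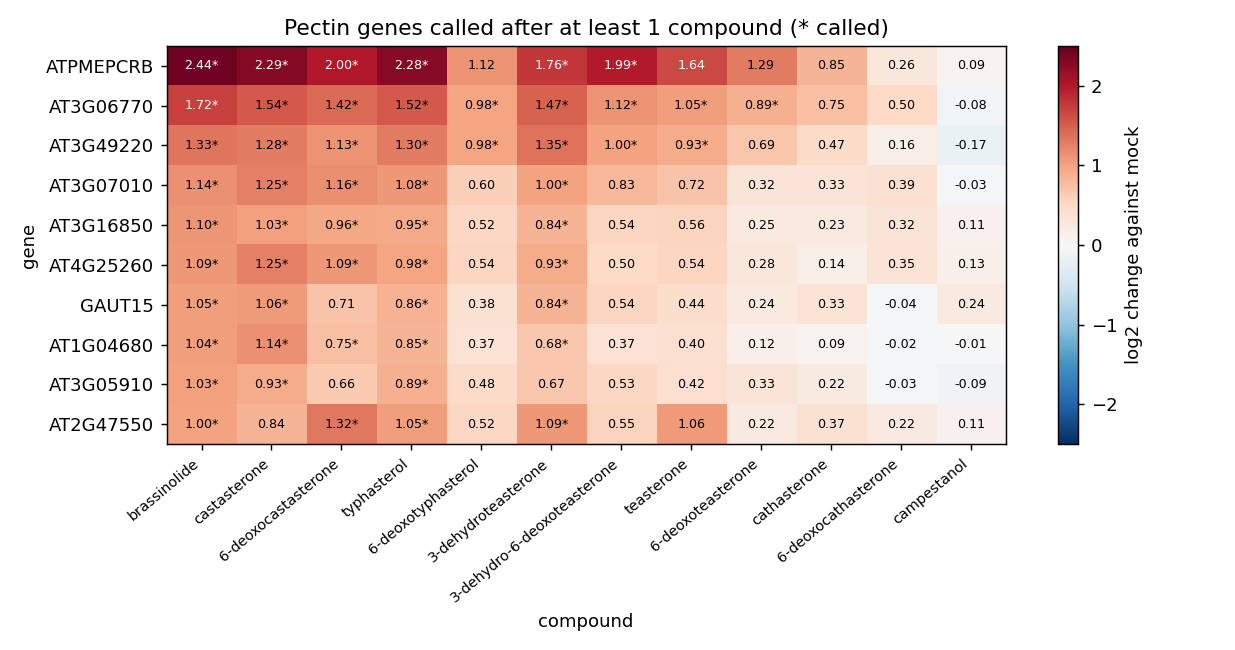
Log2 difference from mock of the 10 pectin genes called after at least 1 compound, by compound, with asterisks for calls and colour from blue (lower) to red (higher). ATPMEPCRB reaches 2.44 and AT3G06770 1.72 after brassinolide, and AT3G49220 is next at 1.33.

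None of the tested genes next to the pair on the chromosome was called after brassinolide, against 2.58% of all tested probe sets. So few neighbours were tested that nothing is read from this count. The methylesterase loci AT4G02300 and AT4G02320 near ATPMEPCRB were dim, with mean intensities of 5.87 and 9.13 over all arrays, below the minimum of 10 for testing. On the other side AT4G02340 and SEC15B, a subunit of the exocyst complex that tethers secretory vesicles, differed by 0.36 and 0.52 after brassinolide and were not called (limma adjusted p = 0.6772 and 0.2426). Around AT3G06770, AT3G06750, AT3G06760 and AT3G06780 differed by -0.40, -0.39 and 0.37 after brassinolide and were not called, with limma adjusted p of 0.636, 0.5812 and 0.8197. Its neighbours GATA15, AT3G06778 and MORF3 had no probe set naming them alone.

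The arrays themselves were alike. Array medians lay between 33.9 and 41.0, the correlation between the 2 arrays of a group across probe sets between 0.959 and 0.978, and no 2 arrays held identical values. Of the tissue markers, 4 of 8 root genes had a named probe set, including PYK10, a glucosidase of root endoplasmic reticulum bodies, and none of the 10 green tissue or 8 seed markers did. The summed root level lay between 2406 and 3818 over all arrays, at 2929 and 2651 after brassinolide, 3818 and 3026 after castasterone, and 3296 and 2714 after mock, so the brassinolide range overlapped that of mock. Its part in the results was not tested.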

How the data were processed

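The authors deposited probe set intensities of 26 ATH1 arrays on a linear scale, computed with MAS5 per the submitters' processing notes. For MAS5, the version, parameters and detection calls are unstated in the sources used here. The trimmed mean was 99.96 to 99.97 on every array, so no further scaling was applied. After 64 controls were dropped from 22810 probe sets, 17606 averaged at least 10 over the arrays and were tested. A platform table named a single gene for 13513 probe sets (9861 tested), and a RefSeq table (TAIR10.1) supplied locus names. Intensities were transformed as log2(value + 5), a scale that shrinks differences of dim probe sets. All 26 arrays entered a single limma fit (version 3.58.1, R 4.3.3) with 13 groups, 13 residual degrees of freedom and an intensity trend, with Benjamini-Hochberg adjustment over all tested probe sets and a threshold of 0.05. The fit was tested on simulated data in which every array varied independently, so variation shared by arrays of a letter was not covered. Both genes, the pectin lists and the comparisons were chosen with earlier results of these data known. Genes were named by fixed rules: both members, the 5 named probe sets most correlated with each, and the list genes called after brassinolide or castasterone or, as examples, among the 4 largest differences after brassinolide. Precision is limited by 2 arrays per group. Alternatives changed the pseudocount (1 or 16), the scaling, the filter, the eBayes trend, the arrays in the fit, the letter block and each array left out. The tables used here hold no sequences, so none is printed and a planned comparison of proteins was not run. No position is given because the deposited files name no build.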

Additional observations from a re-analysis of the deposited data

Results flagged for a closer look

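The reduction at carbon 3 went with opposite differences of ATPMEPCRB in the 2 branches, which is why it is listed. Both typhasterol arrays lay above both 3-dehydroteasterone arrays, and both 6-deoxotyphasterol arrays lay below both 3-dehydro-6-deoxoteasterone arrays. With 2 arrays per group such separation can arise by chance. The difference between the 2 steps, 6-oxo minus 6-deoxo, was 1.39 on the log2 scale (95% interval 0.30 to 2.48). As an interaction contrast in limma it was not called (unadjusted p = 0.01507, adjusted p = 0.9999 over all tested probe sets). The contrast was chosen after seeing the data, among 3 steps and both genes. For AT3G06770 the same contrast was 0.20 (-0.24 to 0.64, limma adjusted p = 0.9999).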

How the results depend on the processing

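Outside the fits that left out an array, no difference of either gene changed sign, and among tested differences the call changed in 2. ATPMEPCRB in typhasterol minus cathasterone (1.43) became called with the replicate block (limma adjusted p = 0.01521) and with only the groups compared in the fit (0.00959). ATPMEPCRB in 6-deoxocastasterone minus 6-deoxocathasterone (1.74) was no longer called without the eBayes trend (limma adjusted p = 0.05272) or with only the groups compared (0.1662), and without each array it ran from 1.44 to 2.04. The cause of these changes was not tested. Calls against mock moved too: with only the groups compared, ATPMEPCRB was no longer called for 3-dehydro-6-deoxoteasterone, nor AT3G06770 for 6-deoxoteasterone, teasterone, 3-dehydro-6-deoxoteasterone, 6-deoxotyphasterol and 6-deoxocastasterone, and with median centring AT3G06770 was not called for 6-deoxoteasterone. The methylesterases called higher after castasterone besides ATPMEPCRB numbered 2 with median centring and 3 with the replicate block, against 1, and the pectate lyases after brassinolide numbered 4 with the replicate block, against 2. Same-letter arrays deviated together with r over 0.1 in 76 of 78 pairs of groups (median 0.317, range -0.022 to 0.484), so arrays of a letter shared variation. The labels state no pairing and 2 pairs fell short, so the fit without the block was kept. With the block the inhibitors AT5G62360 (limma adjusted p = 0.0006152) and AT1G14890 (0.0135) were called lower after brassinolide and the methylesterase AT5G19730 after castasterone (0.005987). ATPMEPCRB was called for 7 compounds, teasterone being added, and AT3G06770 for 10, cathasterone being added. The probe sets called with the block were 917 against 454 for brassinolide, 937 against 419 for castasterone, 804 against 343 for 6-deoxocastasterone, 709 against 312 for typhasterol, 516 against 250 for 3-dehydroteasterone, 270 against 98 for 3-dehydro-6-deoxoteasterone, 184 against 62 for teasterone, 105 against 34 for 6-deoxotyphasterol, 79 against 29 for 6-deoxoteasterone, and 20 and 6 against 0 for cathasterone and 6-deoxocathasterone. Median centring gave 17 for 6-deoxoteasterone. For cathasterone, 6 were called with quantile normalization, 2 with median centring, and 3 with a pseudocount of 16 or a minimum of 30. For 6-deoxocathasterone, 1 was called with either scaling.

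With each array left out in turn, ATPMEPCRB ranged from 0.88 to 1.71 for 6-deoxoteasterone minus mock, from 0.95 to 2.34 for teasterone minus mock, and from 1.57 to 2.41 for 3-dehydro-6-deoxoteasterone minus mock. It ranged from -0.35 to 1.04 for teasterone minus 6-deoxoteasterone, from -0.64 to 0.19 for 3-dehydroteasterone minus 3-dehydro-6-deoxoteasterone, and from -0.57 to 0.82 for 3-dehydroteasterone minus teasterone. AT3G06770 ranged from -0.014 to 0.12 for typhasterol minus 3-dehydroteasterone. Small differences from mock also crossed 0, with ATPMEPCRB from -0.11 to 0.28 for campestanol and from -0.04 to 0.56 for 6-deoxocathasterone, and AT3G06770 from -0.20 to 0.05 for campestanol. No called difference of the pair changed sign. ATPMEPCRB was called against mock for 3 to 7 compounds. List counts besides the pair ranged from 1 to 2 for methylesterases and pectate lyases, from 0 to 1 for acetylesterases after either hormone, and from 0 to 1 for synthesis after brassinolide. Probe sets called ranged from 180 to 486 for brassinolide, 190 to 446 for castasterone, 138 to 346 for 6-deoxocastasterone, 130 to 334 for typhasterol, 78 to 269 for 3-dehydroteasterone, 36 to 117 for 3-dehydro-6-deoxoteasterone, 16 to 72 for teasterone, 6 to 43 for 6-deoxotyphasterol, 5 to 31 for 6-deoxoteasterone, and 0 to at most 8 for the others.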
